A study of Homo sapiens with 16 samples.

Results

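The comparison described here sets 2 libraries labelled NORAD knockdown at 24 h against 2 libraries labelled wild type at 24 h, 4 of the 16 libraries of the series. They were chosen by their titles alone. All come from HCT116, an established human colon cancer cell line, and hold polyadenylated RNA sequenced with its strand kept. NORAD is a long noncoding RNA of the cytoplasm that binds Pumilio proteins. It was depleted by CRISPR interference (CRISPRi): a guide RNA leads a Cas9 that cannot cut, fused to a repressor, to a promoter. Per the labels, the knockdown was induced with 0.5 µg/ml doxycycline in the medium. The labels give the same treatment text for every sample, and whether the wild-type cells also received doxycycline, or carried the dead Cas9, is not stated. The labels do not say that the replicates are separate cultures. The p-values therefore rest on the spread of these libraries alone, which may be technical. The other 12 libraries are from 48 h and 96 h, each with 3 of wild type and 3 of knockdown. They enter the shared estimate of spread and a comparison with later times.

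NORAD was not lower at 24 h. The gene (ENSG00000260032, type lincRNA, minus strand of chr20:36045622-36050960 in GRCh38) stood at 179 and 201 CPM, the counts scaled to the same library size, in wild type and at 230 and 188 CPM in the libraries labelled knockdown. The groups overlapped (log2 fold change 0.14, SE 0.12, edgeR adjusted p = 0.523). Under total-count scaling it passed as higher (0.34, edgeR adjusted p = 0.0467), and without knockdown replicate 1 its sign turned (-0.02, edgeR adjusted p = 0.973). The effect at 24 h minus the mean of the effects at 48 h and 96 h was 2.24 (SE 0.14, edgeR adjusted p = 5.72e-09). Among 13 tested genes of the NORAD region, NORAD included, MYL9, a myosin light chain gene, rose (0.49) and DSN1, a kinetochore gene, fell (-0.30). Of all genes tested, 5.14% passed as higher and 12.4% as lower, so these calls do not set the region apart. The DSN1 call ended under each of the 4 other scalings (edgeR adjusted p from 0.060 to 0.625) and with knockdown replicate 1 (0.178), knockdown replicate 2 (0.206) or wild-type replicate 2 (0.348) left out. The values below therefore describe how the cells labelled knockdown differed from the wild-type cells before the target was lower. "Knockdown" in what follows is the label of the libraries only.

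The gene ZNF10 marked the labels at this time in place of NORAD. ZNF10 (ENSG00000256223, chr12:133130575-133159465, plus strand) encodes a zinc finger protein whose KRAB domain is the repressor commonly fused to dead Cas9. It was at 0.263 and 0.439 CPM in wild type and at 110 and 78.7 CPM in the knockdown libraries, 268-fold apart in group means (log2 fold change 8.05, SE 0.66, edgeR adjusted p = 2.69e-05). Nearly all of these counts were given to a single short transcript. ZNF10-205, 472 bases long, held 6 and 9 estimated counts in the wild-type libraries and 3684 and 3285 in the knockdown libraries, which were 99.84% and 99.79% of the gene's counts there. The mean level of ZNF10 in knockdown was lower later, at 9.92 ± 6.13 CPM (SD, n = 3) at 48 h and 35.3 ± 3.57 CPM (SD, n = 3) at 96 h, against 0.084 ± 0.025 and 0.140 ± 0.056 CPM in wild type (n = 3 each). Whether these counts come from the endogenous gene or from a CRISPRi construct was not tested. In KRAB repression, KRAB domains recruit TRIM28 and its partners to silence chromatin. Of 14 tested genes of that complex none rose and 3 fell, 1 without knockdown replicate 2 and none under abundance-dependent scaling. CBX3, a heterochromatin protein gene, fell by 0.56 on the log2 scale (edgeR adjusted p = 5.19e-04, and 0.0552 under abundance-dependent scaling). Of all genes tested, 12.4% passed as lower.

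The 4 libraries held between 28391784 and 37506896 estimated counts, the knockdown libraries more than the wild-type ones. Of 19836 genes tested, 3484 passed the threshold, an edgeR adjusted p under 0.05. That is 17.6% of the genes tested, with 1019 (5.14%) higher and 2465 (12.4%) lower in knockdown. Groups that did not overlap, with both knockdown libraries above or below both wild-type libraries, were found for 59.7% of all genes tested, so a lack of overlap between groups of 2 says little about a single gene. The number of calls depended on single libraries: without knockdown replicate 2 it was 1500, without wild-type replicate 2 it was 1732, without knockdown replicate 1 it was 1943 and without wild-type replicate 1 it was 2085. The balance of directions depended on the scaling. Higher genes made up 29.2% of the calls under TMM, the scaling used here, 36.0% under RLE scaling, 49.5% under abundance-dependent scaling, 53.7% under upper-quartile scaling and 75.4% under total-count scaling. Scaling by total counts moved the median log2 fold change of all genes from -0.02 to 0.19, and upper-quartile scaling moved it to 0.10. Genes called in the same comparison under all 5 scalings numbered 1586, of which 852 were higher and 734 lower. Of these, 911 (300 higher and 611 lower) also passed with each of the 4 libraries left out in turn.

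Direction also went with expression level. In the 3967 most abundant genes, with mean levels from 47.1 CPM up, the median log2 fold change was -0.18, with 229 genes higher and 1324 lower. In the 3968 least abundant genes, with mean levels up to 0.470 CPM, the median was 0.22, with 22 higher and 7 lower. The fifth in the middle had a median of 0.00 and held 348 higher and 294 lower genes. Composition differed in the same libraries. Cytosolic ribosomal protein genes held 10.7% and 10.3% of the counts in wild type and 8.85% and 9.04% in knockdown. Mitochondrially encoded genes held 4.89% and 5.05% in wild type and 6.08% and 6.10% in knockdown, and transcripts annotated as retained introns held 5.17% and 4.93% against 5.58% and 6.04%. The part of these differences in the gene results was not tested, and they lie beside each list described below. The lists were not matched for level, while the 5.14% higher and 12.4% lower set beside them cover all levels.

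**Figure D1:**
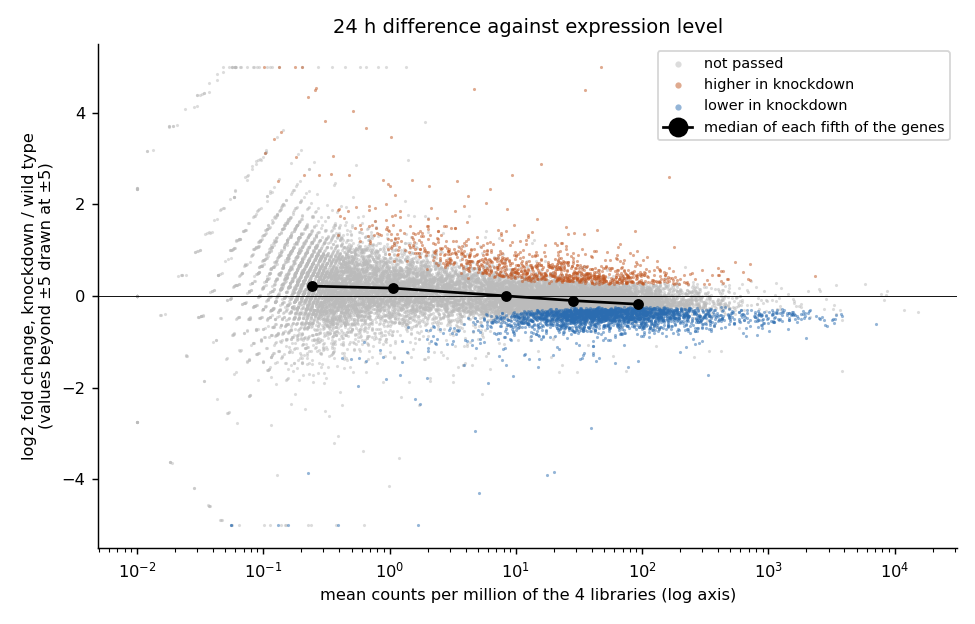
Each point is 1 of the 19836 tested genes, placed by the mean CPM of the 4 libraries of 24 h (log axis) and its log2 fold change, knockdown over wild type; orange and blue points passed as higher and lower, and values beyond the axis are drawn at its edge. The black line joins the medians of 5 equal groups of genes ordered by level, which run from 0.22 in the least to -0.18 in the most abundant genes.

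Single genes differed by far more than the lists around them. Among genes with a mean of at least 5 CPM, the largest rise after ZNF10 was that of CEMIP, a hyaluronan-binding protein that takes part in its breakdown (ENSG00000103888, chr15:80779343-80951776, plus strand). It went from 3.09 and 2.85 CPM in wild type to 75.7 and 59.3 CPM in knockdown (log2 fold change 4.50, SE 0.20, edgeR adjusted p = 1.54e-10). TMPRSS11E, a membrane-bound serine protease gene, was at 0.376 and 0.402 CPM in wild type and at 9.43 and 8.47 CPM in knockdown (4.51, SE 0.32, edgeR adjusted p = 9.58e-09). TMPRSS11E lies just under that mean and was picked out after its values were seen. The effects were 3.56 and 6.32 at 48 h and 3.70 and 4.31 at 96 h, and the test of 24 h against the later times was not passed (edgeR adjusted p = 0.101 and 0.577).

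On the other side, 3 genes were nearly lost. CEP83, a gene for the distal appendages that anchor a centriole to the membrane (chr12:94306449-94459988, minus strand), fell from 9.07 and 10.3 CPM to 0.415 and 0.550 CPM (log2 fold change -4.30, SE 0.22, edgeR adjusted p = 3.71e-11). KCNK1, a potassium leak channel gene (chr1:233614004-233672512, plus strand), fell from 32.3 and 34.1 CPM to 2.52 and 1.96 CPM (-3.90, SE 0.15, edgeR adjusted p = 2.61e-13). EPHB2, an ephrin receptor that positions cells in the intestinal crypt (chr1:22710839-22921500, plus strand), fell from 38.6 and 36.5 CPM to 2.73 and 2.56 CPM (-3.83, SE 0.15, edgeR adjusted p = 2.61e-13). FKBP10, an endoplasmic reticulum isomerase that helps to fold collagen, fell from 71.8 and 66.4 CPM to 8.78 and 9.85 CPM (-2.89, SE 0.15). In each of these 4 genes the 2 libraries of a group lay close together and the groups were far apart. Of the transcripts of CEP83, the full-length form CEP83-201 went from 134 and 151 estimated counts to 0 and 5, while CEP83-208, which ends early, went from 37 and 60 to 10 and 16.

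Relatives of these genes were read as lists, against 17.6% of all genes called. Of 9 tested genes of the centriole distal appendages and their neighbours, CEP83 fell by 4.30, while CEP164 (0.23), SCLT1 (-0.21), FBF1 (0.11), CEP89 (-0.31), TTBK2 (0.23) and ANKRD26 (-0.07) did not pass. ODF2 (-0.35) and CEP128 (-0.63) fell, and without knockdown replicate 2 CEP83 was the only gene of the list that passed as lower. Of 16 Eph receptors and ephrins, EPHB2 and the ligand gene EFNB2 (-0.57) fell, and the receptor gene EPHA1 (0.42) and the ligand gene EFNA1 (0.32) rose. EFNB2 did not pass without wild-type replicate 2 (edgeR adjusted p = 0.127) or knockdown replicate 2 (0.105), nor EFNA1 without wild-type replicate 1 (0.135), wild-type replicate 2 (0.248) or knockdown replicate 1 (0.334). The log2 fold change of EPHB3, the closest relative of EPHB2 in crypts, was 0.26 and did not pass (edgeR adjusted p = 0.25). Of 10 tested hyaluronan genes 2 rose and 4 fell, and 1 fell under total-count scaling. With 1 library left out 1 to 2 passed as higher and 1 to 3 as lower. The synthase gene HAS3 fell from 379 and 408 CPM to 217 and 182 CPM (-0.98, SE 0.11, edgeR adjusted p = 3.4e-06) while CEMIP rose. CEMIP2, a relative of CEMIP, rose by 0.51, a call that ended with either wild-type library or knockdown replicate 1 left out. The hyaluronidase gene HYAL1 (-0.65), the receptor gene HMMR (-0.48) and UGDH (-0.35), which makes a precursor of hyaluronan, fell, and each call ended under total-count scaling and with knockdown replicate 2 or a wild-type library left out. The hyaluronan receptor gene CD44 was at -0.26 and did not pass.

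The genes that follow fell by less, and passed with each of the 4 libraries left out. MYH10, a nonmuscle myosin heavy chain gene, fell from 89.4 and 91.2 CPM to 33.3 and 32.2 CPM (log2 fold change -1.46, SE 0.09, edgeR adjusted p = 8.40e-10). NFIC, a CCAAT-binding transcription factor gene, fell from 131 and 139 CPM to 51.7 and 49.0 CPM (-1.43, SE 0.12). VCAN, which encodes the matrix proteoglycan versican, fell by 1.42, the carboxypeptidase gene CPA4 by 1.35, the secreted peptide precursor gene VGF by 1.34, and the amidoxime reductase gene MARC1 by 1.5. LINC00678 fell by 1.55, PLEKHH2 by 1.91, CCDC88B by 1.36, ABHD12B by 1.38, and the antisense genes MGC32805 and AC019068.1 by 1.39 and 1.31. XAB2, a spliceosome gene, fell from 134 and 98.9 CPM to 25.1 and 53.6 CPM (-1.56, SE 0.28). Its coding transcript XAB2-201 went from 3335 and 2462 estimated counts to 588 and 1918, while the retained-intron form XAB2-202 was at 178 and 180 against 212 and 241. These counts are not scaled to library size. The libraries held 28391784 and 28582248 estimated counts in wild type and 31532412 and 37506896 in knockdown, so the XAB2-202 values do not show a rise. The XAB2 call ended when the fit held the 24 h libraries alone (edgeR adjusted p = 0.225).

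Calls of 4 of the 40 genes named for size rested on single libraries. IL32, a cytokine gene, was at 750 and 267 CPM in wild type and at 206 and 103 CPM in knockdown (log2 fold change -1.72). It did not pass without wild-type replicate 1 (-0.79, edgeR adjusted p = 0.136) or knockdown replicate 2 (-1.26, edgeR adjusted p = 0.159). TMC5 (-1.37) did not pass with knockdown replicate 1 (edgeR adjusted p = 0.094), knockdown replicate 2 (0.237) or wild-type replicate 1 (0.269) left out. ZFHX4 (-1.75) did not pass without wild-type replicate 2 (0.123) or knockdown replicate 1 (0.14). The palmitoyltransferase gene ZDHHC17 (1.54) did not pass with any of the 4 libraries left out (0.0565 to 0.134). IL32, TMC5 and ZFHX4 also failed the test when the fit held the 24 h libraries alone (0.337, 0.257 and 0.0914). IL32 and TMC5 were higher in replicate 1 of both groups. In a fit that gave same-numbered libraries a common term, IL32, TMC5 and ZFHX4 passed (edgeR adjusted p = 2.02e-06, 0.00101 and 0.0304) and ZDHHC17 did not (0.100).

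Outside the interferon genes, the named rises spanned several functions. The zinc finger genes ZNF608 (2.33, SE 0.19) and ZNF827 (1.44, SE 0.09) rose, the latter from 23 and 24.4 CPM to 65.4 and 62.9 CPM. CENPT, a kinetochore gene, rose from 48.0 and 46.8 CPM to 112 and 142 CPM (1.42, SE 0.12, edgeR adjusted p = 7.29e-08). Transcripts annotated as retained introns held 85.6% and 82.5% of the CENPT counts in wild type and 78.5% and 79.1% in knockdown. ITGAX, an integrin subunit best known from leukocytes, rose by 1.36, the matrix genes ECM1 and COL11A2 by 1.36 and 1.40, the selenium carrier gene SELENOP by 1.42 and the carnosine synthase gene CARNS1 by 1.69. Each of these passed under all 5 scalings and with each library left out.

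**Figure D2:**
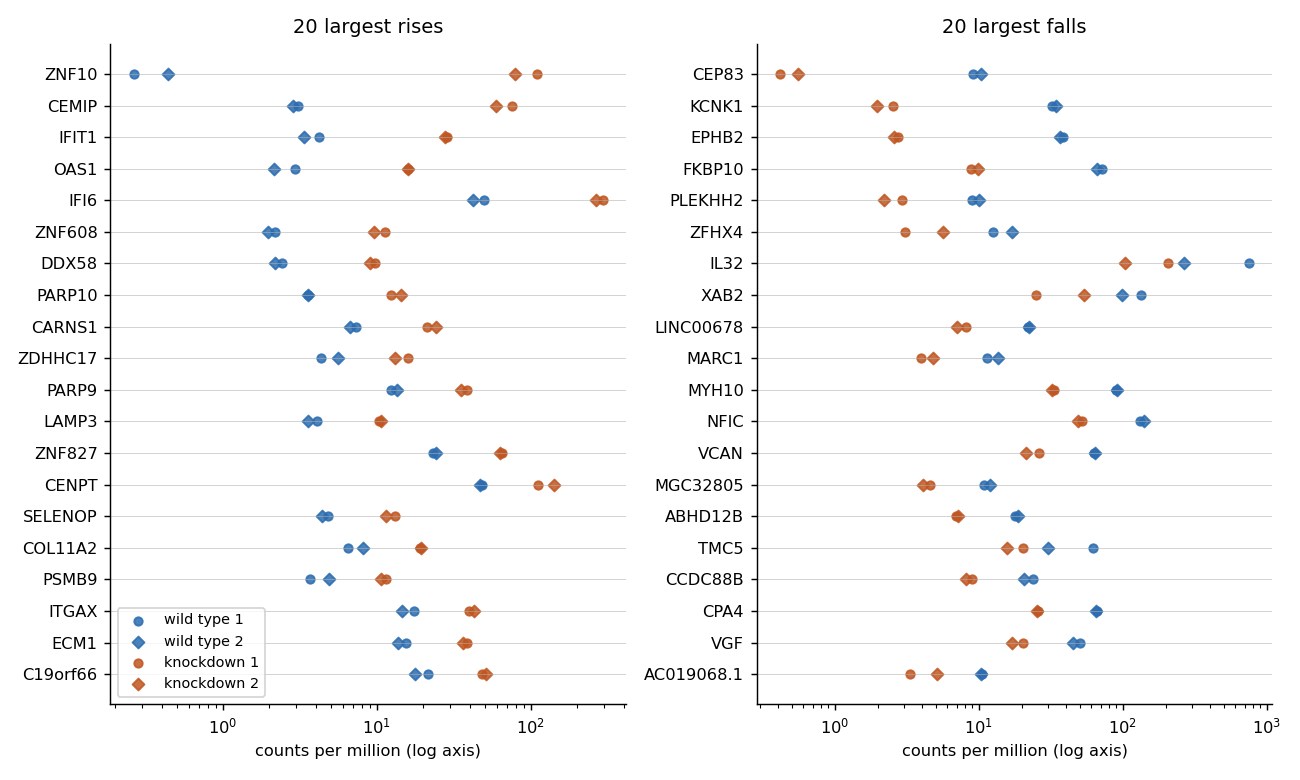
CPM (log axis) in each of the 4 libraries of 24 h for the 20 largest rises and the 20 largest falls among genes that passed with a mean of at least 5 CPM and groups that did not overlap; circles are replicate 1 and diamonds replicate 2, blue wild type and orange knockdown. The groups of CEMIP, CEP83, KCNK1 and EPHB2 stand more than 10-fold apart, while the 2 wild-type libraries of IL32, at 750 and 267 CPM, lie almost as far from each other as the groups do.

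Interferon-stimulated genes rose as a group. Interferons bind cell-surface receptors that activate transcription factors, STAT2 and IRF9 among them, that bind a DNA element, the interferon-stimulated response element, in front of target genes. The targets restrict viruses, and several are themselves sensors or factors of the pathway. The core of that element was searched in RefSeq promoters (GRCh38.p14, 250 bases before to 50 after each start) as the letters GAAANNGAAA on either strand. A match was found in 2.85% of the 13581 tested genes with a promoter in the table. It was found in 28 of 44 interferon effector genes with a promoter (63.6%), in 9 of 18 genes of the MHC class I list and in 3 of 22 sensors and interferon transcription factors. Among the effectors, 23 of 35 that passed as higher and 5 of 9 that did not pass held a match. Of all genes that passed as higher, 6.29% held one, and of those that passed as lower, 2.66%. A match is a description of letters, not a site, and OAS1, PARP9 and DDX58, which rose, held none in their windows. The sequences that follow are the 250 bases before the start of the 4 effectors on this list with the lowest p-values whose matches lie wholly before the start, with the matches in capitals.
IFI6 (chr1:27672193-27672442, minus strand): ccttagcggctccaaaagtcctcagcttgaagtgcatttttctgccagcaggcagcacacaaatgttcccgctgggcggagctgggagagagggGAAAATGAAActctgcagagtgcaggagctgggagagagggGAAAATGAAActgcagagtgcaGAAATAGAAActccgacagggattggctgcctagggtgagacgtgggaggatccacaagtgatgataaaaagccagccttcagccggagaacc
IFIT1 (chr10:89392373-89392622, plus strand): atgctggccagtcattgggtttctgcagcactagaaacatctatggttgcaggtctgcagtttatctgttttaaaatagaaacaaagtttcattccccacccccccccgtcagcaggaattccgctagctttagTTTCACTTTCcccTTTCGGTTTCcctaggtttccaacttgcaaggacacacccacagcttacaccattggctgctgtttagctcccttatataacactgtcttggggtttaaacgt
PARP12 (chr7:140062952-140063201, minus strand): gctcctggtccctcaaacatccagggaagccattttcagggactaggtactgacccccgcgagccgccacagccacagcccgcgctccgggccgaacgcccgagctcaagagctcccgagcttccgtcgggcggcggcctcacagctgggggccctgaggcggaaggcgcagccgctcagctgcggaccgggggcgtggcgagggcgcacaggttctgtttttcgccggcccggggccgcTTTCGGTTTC
IFIT3 (chr10:89327747-89327996, plus strand): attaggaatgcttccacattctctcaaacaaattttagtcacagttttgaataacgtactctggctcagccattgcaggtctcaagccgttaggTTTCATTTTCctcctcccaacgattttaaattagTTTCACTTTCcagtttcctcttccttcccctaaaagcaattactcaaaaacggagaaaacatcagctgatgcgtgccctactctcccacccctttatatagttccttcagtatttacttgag
The 3 matches of IFI6 begin 156, 115 and 93 bases before the start, the 2 of IFIT1 116 and 103 bases before it, the match of PARP12 10 bases before it and the 2 of IFIT3 156 and 122 bases before it.

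Of 59 tested interferon effectors 44 rose and none fell, against 5.14% of all genes higher, and the median log2 fold change was 0.81 against -0.02 for all genes tested. Under each of the 5 scalings 44 to 51 of them rose, and with 1 library left out 36 to 39. IFI6, a mitochondrial and endoplasmic reticulum membrane protein, went from 49.5 and 42.2 CPM to 293 and 264 CPM (log2 fold change 2.60, SE 0.12, edgeR adjusted p = 8.10e-12). IFIT1, which binds viral RNA caps, went from 4.21 and 3.36 CPM to 28.3 and 27.8 CPM (2.89, SE 0.20, edgeR adjusted p = 5.47e-09). IFIT3, its partner, went from 1.5 and 1.68 CPM to 6.29 and 6.19 CPM (1.97, SE 0.21). The 2 libraries of each group lay close together for these genes and the groups stood well apart. OAS1, which makes the messenger that activates RNase L, went from 2.94 and 2.16 CPM to 15.9 and 16 CPM (2.65, SE 0.21), and OASL rose by 1.10. The virus-entry inhibitor IFITM1 (2.19) and the virion tether BST2 (1.85) rose from under 2 CPM to between 5 and 7.1 CPM.

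Genes of ADP-ribosyltransferases were among the effectors that rose. PARP9 and its partner ubiquitin ligase DTX3L, which are neighbours on chromosome 3, rose from 12.3 and 13.4 CPM to 38.5 and 35.2 CPM and from 13.6 and 14.3 CPM to 32.5 and 30.0 CPM (log2 fold changes 1.51 and 1.16, SE 0.11 and 0.12). PARP10 rose by 1.90 and PARP12 by 0.98. HELZ2, a helicase gene and nuclear receptor coactivator, rose from 120 and 113 CPM to 256 and 231 CPM. C19orf66 (RefSeq SHFL), an inhibitor of ribosomal frameshifting that is not on the effector list, rose from 21.5 and 17.6 CPM to 47.9 and 51.5 CPM. LAMP3 rose by 1.45, SP110 by 1.12 and SAMD9 by 1.02. Several classic effectors stayed rare. MX1, a dynamin-like restriction factor gene, was at 2.00 and 1.68 CPM in wild type and 3.53 and 4.11 CPM in knockdown (1.06), a call that ended without wild-type replicate 2 (edgeR adjusted p = 0.0828) or knockdown replicate 2 (0.0595). IFI44 was at 0.038 and 0.292 CPM against 1.93 and 1.84 CPM, so its log2 fold change of 3.48 rests on few counts in wild type.

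The genes that sense nucleic acids and carry the signal rose in smaller number. Of 31 tested sensors and interferon transcription factors 10 rose, against 5.14% of all genes higher, none fell and the median was 0.22. Genes of factors that bind the response element rose: STAT2 from 57.8 and 59.8 CPM to 109 and 110 CPM (log2 fold change 0.90, SE 0.10) and IRF9 from 28.6 and 27.4 CPM to 58.6 and 52.4 CPM (0.99, SE 0.11). The RNA sensor genes DDX58, which encodes RIG-I, and IFIH1, which encodes MDA5, rose by 2.03 and 1.34, and TLR3 by 1.31. TMEM173, the gene of the DNA-sensing adaptor STING, rose by 0.93 and IRF7 by 0.78. Of the interferon genes themselves, IFNE went from 0.452 and 0.439 CPM to 2.11 and 3.04 CPM (2.52, SE 0.49, edgeR adjusted p = 0.0011). Under the other scalings 11 to 16 genes of this list passed as higher, and 9 with any 1 library left out.

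Antigen presentation by MHC class I moved with them. Of 22 tested genes 14 rose and 1 fell, against 5.14% of all genes higher and 12.4% lower, with a median of 0.44. The immunoproteasome subunit gene PSMB9 rose from 3.69 and 4.86 CPM to 11.5 and 10.7 CPM (log2 fold change 1.37, SE 0.15), and NLRC5, the transactivator of these genes, from 8.05 and 6.58 CPM to 16.3 and 17.6 CPM (1.21, SE 0.14). The peptide trimming gene ERAP1 rose by 0.87 and HLA-F by 0.69. The gene that fell was another immunoproteasome subunit, PSMB10, from 25.1 and 26.2 CPM to 15.6 and 17.9 CPM (-0.61, SE 0.12, edgeR adjusted p = 0.0012). Without wild-type replicate 2, 8 genes of the list passed as higher in place of 14, and without knockdown replicate 1, 9. Reads of the HLA genes can be shared among near-identical copies, so the division between them is uncertain.

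Genes of MHC class II were found in a run of neighbouring genes on chromosome 6. When tested genes were ordered along the chromosomes and taken 20 at a time, the second highest of the separate runs, at a median log2 fold change of 0.62, spanned HLA-DRA to HLA-DPA1, with 8 genes of 20 higher and 1 lower. Those higher were the class II genes HLA-DRA, HLA-DRB5, HLA-DRB1, HLA-DQB1, HLA-DMA and HLA-DPA1 and the class I pathway genes PSMB9 and TAP1, and the gene that was lower was BRD2. Of all genes tested, 5.14% passed as higher and 12.4% as lower. The 1st and 99th percentiles of the medians of all 19374 overlapping runs were -0.28 and 0.32. Within the run, HLA-DRB1 went from 6.06 and 5.37 CPM to 12.8 and 11.9 CPM (1.11, SE 0.13, edgeR adjusted p = 7.5e-06) and HLA-DRA from 0.941 and 0.987 CPM to 3.23 and 2.96 CPM (1.68). HLA-DPB1, just outside it, rose by 1.44. These class II genes were picked out after their values were seen. CIITA, the transactivator of class II genes, was at 2.56 and 3.22 CPM against 3 and 3.28 CPM (0.12, edgeR adjusted p = 0.76). The class II invariant chain gene CD74 stood under 0.6 CPM in all 4 libraries and did not pass (0.82, edgeR adjusted p = 0.30). The highest run, of protocadherin genes on chromosome 5 (median 0.79), held 1 called gene of 20, and a run on chromosome 17 from SNORD3B-1 to SLC47A2 (median 0.60) held 4 higher and 1 lower.

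Other inflammatory and damage genes were higher about as seldom as all genes. Of 24 tested NF-kappaB targets and chemokines 1 rose, TNFAIP2 (0.45), and 5 fell, against 5.14% of all genes higher and 12.4% lower. Without wild-type replicate 1, 2 of the 24 passed as lower, and without knockdown replicate 2, 1. The feedback inhibitor gene NFKBIA was at 42.8 and 28.9 CPM in wild type and 23.6 and 21.8 CPM in knockdown (-0.66), a call that ended without wild-type replicate 1 (edgeR adjusted p = 0.127) or knockdown replicate 2 (0.0674). Of 32 p53 targets 2 rose, TP53I3 (0.63) and TP53INP1 (0.60), and 6 fell, among them GDF15 from 234 and 212 CPM to 150 and 103 CPM (-0.82) and TRIAP1 (-0.71). The GDF15 call ended when the fit held the 24 h libraries alone (edgeR adjusted p = 0.167). Without knockdown replicate 2, 3 p53 targets passed as lower in place of 6.

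**Figure D3:**
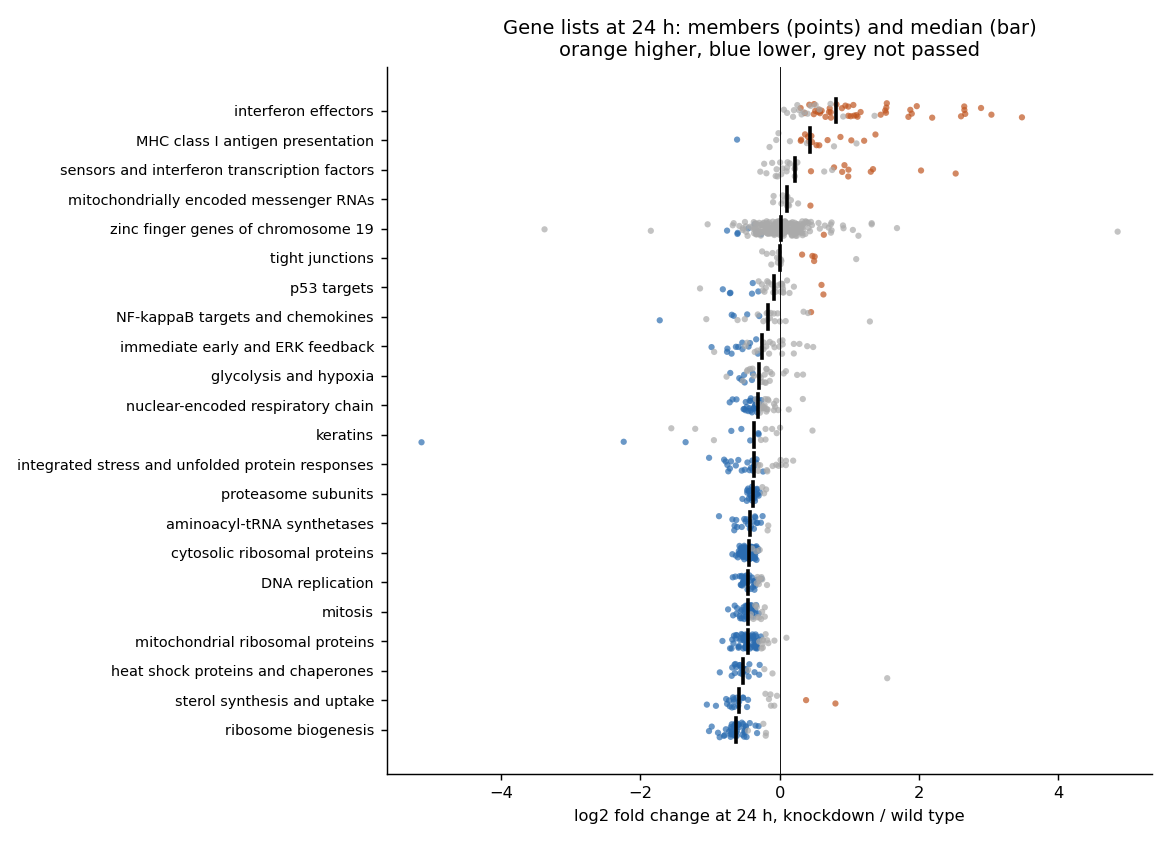
Log2 fold change at 24 h of every tested member (points) of 22 gene lists, with the list median as a black bar; orange members passed as higher, blue as lower, grey did not pass. Interferon effectors and MHC class I genes lie to the right, and ribosome biogenesis, sterol and chaperone genes have the lowest medians of the lists shown, at -0.62, -0.59 and -0.53.

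Many genes that serve growth fell. MYC, a transcription factor that drives ribosome production, fell from 294 and 312 CPM to 144 and 136 CPM (log2 fold change -1.11, SE 0.14, edgeR adjusted p = 5.5e-05). Of 12 tested genes of the MYC, MAX and MXD network 2 rose and 2 fell. The partner MAX was at -0.26 and did not pass. Of the antagonist genes MXD4 rose by 0.38 and MXD1 fell by 0.68, the latter a call that ended without wild-type replicate 1 (edgeR adjusted p = 0.106) or knockdown replicate 2 (0.319). Genes lower were 12.4% of all genes tested, and 1324 of the 3967 most abundant. Of 48 tested genes of ribosome biogenesis 44 fell and none rose, with a median of -0.62. Under each scaling 38 to 44 of them fell, and with 1 library left out 37 to 41. FBL, the methyltransferase of nucleolar RNA, fell from 394 and 366 CPM to 190 and 187 CPM (-1.01, SE 0.08, edgeR adjusted p = 6.7e-08). TCOF1, which supports transcription of ribosomal DNA, fell from 151 and 143 CPM to 74.4 and 84.7 CPM (-0.89, SE 0.10), and LYAR, MRTO4 and the helicase gene DDX21 fell by 0.98, 0.86 and 0.80. The summed level of the list was 7107 and 7319 CPM in wild type and 4508 and 4624 CPM in knockdown.

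The E-box CACGTG, the letters that MYC and MAX are known to bind and which read the same on both strands, was searched in the same RefSeq windows. It was found in 9.44% of all tested genes with a promoter, in 12.3% of genes that passed as lower, in 7.23% of those that passed as higher and in 16 of 41 ribosome biogenesis genes (39.0%). In the DNA replication list 4 of 37 promoters held it and in the mitochondrial ribosomal protein list 4 of 66. As an example, the 250 bases before the start of EBNA1BP2, a nucleolar gene that fell from 142 and 146 CPM to 78.5 and 88.5 CPM (log2 fold change -0.79, SE 0.09), hold 1 match 237 bases before the start, in capitals. This gene was taken because it had the lowest p-value of the list among those with a match before the start.
EBNA1BP2 (chr1:43172571-43172820, minus strand): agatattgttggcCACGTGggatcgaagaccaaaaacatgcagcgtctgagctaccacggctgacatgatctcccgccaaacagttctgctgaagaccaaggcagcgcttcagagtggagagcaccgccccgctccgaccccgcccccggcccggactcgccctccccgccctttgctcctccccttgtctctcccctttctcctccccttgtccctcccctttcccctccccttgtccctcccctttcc
Neither the match nor its absence elsewhere says whether MYC binds there.

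Genes of the translation apparatus were lower too, and how many passed depended on the scaling. Of all genes 12.4% passed as lower, and of the 3967 most abundant genes 1324. Of 80 cytosolic ribosomal protein genes 77 fell, with a median log2 fold change of -0.44 and a range from -0.68 to -0.29. RPL14 fell from 1047 and 986 CPM to 646 and 624 CPM (-0.68, SE 0.10). Under abundance-dependent scaling, which takes out a trend with level, 6 of the 80 passed as lower and the median was -0.07, and under total-count scaling 34 passed. With knockdown replicate 1 left out the count was 50, with knockdown replicate 2 it was 28 and with wild-type replicate 1 it was 41. Of 75 mitochondrial ribosomal protein genes 64 fell (median -0.45), 27 under total-count and 40 under abundance-dependent scaling. With knockdown replicate 1 left out the count was 35, with knockdown replicate 2 it was 31 and with wild-type replicate 2 it was 39. MRPL11 fell from 86.9 and 84.3 CPM to 46.3 and 50.5 CPM (-0.82, SE 0.10). Of 23 aminoacyl-tRNA synthetase genes, which charge transfer RNAs, 21 fell (median -0.43), 9 under total-count and 11 under abundance-dependent scaling. With knockdown replicate 1 left out 13 fell, with knockdown replicate 2 9 and with wild-type replicate 2 12. KARS fell by 0.68 and YARS by 0.65.

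Protein folding and turnover genes followed, again against 12.4% of all genes lower. Of 27 heat shock and chaperone genes 23 fell and none rose (median -0.53), 14 of them under abundance-dependent scaling. The mitochondrial chaperonin gene HSPD1 fell from 1005 and 1087 CPM to 592 and 561 CPM (log2 fold change -0.86, SE 0.10, edgeR adjusted p = 7.7e-06) and its lid HSPE1 by 0.69. Genes of the cytosolic chaperonin fell, with TCP1 at -0.68 and CCT5 at -0.62. Of 30 proteasome subunit genes 27 fell (median -0.38), 8 under total-count and 6 under abundance-dependent scaling, and 12 to 17 with each of the 4 libraries left out in turn. PSMC3, an ATPase subunit gene, fell from 242 and 238 CPM to 163 and 168 CPM (-0.53, SE 0.08).

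Cell division genes were lower as a group, read against 12.4% of all genes lower. Of 45 DNA replication genes 37 fell and none rose (median log2 fold change -0.45), and 14 fell under total-count and 26 under abundance-dependent scaling. MCM7, a subunit of the replicative helicase, fell from 408 and 407 CPM to 266 and 292 CPM (-0.54, SE 0.09). With knockdown replicate 1 left out 15 of the 45 passed, with knockdown replicate 2 20 and with wild-type replicate 2 17. Of 48 mitosis genes 37 fell and none rose (median -0.45), 12 under total-count and 25 under abundance-dependent scaling. With knockdown replicate 1 left out 22 fell, with knockdown replicate 2 17 and with wild-type replicate 2 17. UBE2C, a ubiquitin-conjugating gene of mitotic exit, fell from 280 and 268 CPM to 167 and 161 CPM (-0.74, SE 0.09) and CCNB1, the mitotic cyclin gene, from 168 and 174 CPM to 105 and 110 CPM (-0.67, SE 0.10). Replication-dependent histone RNAs mostly lack the poly(A) tail selected for here. Of 30 such genes 1 passed as lower, and none with a library left out. The histone list still had the lowest median of the 42 lists, at -1.09. In 24 of its 30 genes both knockdown libraries lay below both wild-type libraries. Groups were apart, in either direction, for 59.7% of all genes tested, so this count alone says little. The summed level of the histone list was highest in wild-type replicate 1. With 1 library left out the median ran from -1.58, without wild-type replicate 2, to -0.49, without wild-type replicate 1. With only the 24 h libraries 8 of the 30 passed as lower. The few calls therefore do not show that histone RNAs were unchanged. In bulk RNA, fewer cells of a kind and less RNA per cell cannot be told apart.

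Lipid synthesis and nutrient genes differed in part, read against 5.14% of all genes higher and 12.4% lower. Of 26 genes of sterol synthesis and uptake 18 fell and 2 rose (median log2 fold change -0.59), 15 to 18 fell under each scaling, and 14 to 18 with 1 library left out. INSIG1, the sterol-sensing brake of the pathway, fell from 359 and 348 CPM to 199 and 144 CPM (-1.04, SE 0.13), ACAT2 by 0.91 and the isomerase gene IDI1 by 0.76. TM7SF2, a sterol reductase gene, went the other way, from 48.7 and 43.5 CPM to 76.3 and 84.3 CPM (0.80, SE 0.10, edgeR adjusted p = 1.3e-05). Of 9 fatty acid synthesis genes 4 fell, 2 without either wild-type library and 1 without knockdown replicate 2 or under total-count scaling. ACSS2, which makes acetyl-CoA from acetate, fell from 209 and 188 CPM to 115 and 102 CPM (-0.87, SE 0.15), while the log2 fold change of SCD was -0.06 and did not pass. SLC7A5, a leucine transporter gene, fell from 444 and 434 CPM to 257 and 258 CPM (-0.77, SE 0.13), and 4 of 14 amino acid transporters fell in all. Without wild-type replicate 2 or knockdown replicate 2, 2 of the 14 passed as lower.

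Stress response genes were more often lower than higher, and how many depended on the scaling. Other scalings gave higher genes too. Under total-count scaling these included 2 stress response, 3 immediate early and ERK feedback and 3 glycolysis and hypoxia genes. Under abundance-dependent scaling they were 3, 1 and 5, and 2 of the glycolysis and hypoxia list were lower. Of all 19836 genes tested, 2477 and 1357 passed as higher under these scalings, respectively. The counts of this paragraph stand against 12.4% of all genes lower, and 1324 of the 3967 most abundant genes. In the list of the unfolded protein and integrated stress responses, 21 of 34 genes fell and none rose (median log2 fold change -0.37), 11 under abundance-dependent scaling, 7 with knockdown replicate 2 left out and 9 with wild-type replicate 1 left out. CHAC1, a glutathione-degrading target of ATF4, fell from 8.66 and 6.43 CPM to 3.92 and 3.56 CPM (-1.01, SE 0.17), ASNS by 0.74 and ATF3 by 0.75. Of 35 immediate early and ERK feedback genes 12 fell and none rose, 4 with knockdown replicate 2 left out and 7 with wild-type replicate 1 left out, with FOSL1 at -0.63 and IER3 at -0.69. Of 54 nuclear-encoded respiratory chain genes 31 fell (median -0.32), 9 under total-count scaling and 9 to 17 with each of the 4 libraries left out in turn, with ATP5MC1 at -0.72. The 13 mitochondrially encoded messenger RNAs had a median of 0.11, and 1, MT-CYB, passed as higher (0.44), a call that ended without wild-type replicate 2 (edgeR adjusted p = 0.0624) or knockdown replicate 1 (0.0518). Under abundance-dependent scaling 10 of the 13 passed as higher. Of 29 glycolysis and hypoxia genes 7 fell, 3 and 4 without wild-type replicates 1 and 2, 16 without knockdown replicate 1 and 0 without knockdown replicate 2.

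Epithelial markers were present in both populations, as the label of the line has it. EPCAM, an epithelial adhesion gene, was at 238 and 268 CPM in wild type and 254 and 233 CPM in knockdown (log2 fold change -0.06, edgeR adjusted p = 0.80), and CDH1, which encodes E-cadherin, at 103 and 106 against 143 and 110 CPM (0.27, edgeR adjusted p = 0.29). The intestinal markers VIL1 and CEACAM5 were under 0.6 CPM in all 4 libraries. KRT8 and KRT18 passed as lower (-0.31 and -0.30), and both calls ended when scaled by total counts, by upper quartile or by abundance, and with each library left out. By abundance the sign turned as well, to 0.15 for KRT8 and 0.08 for KRT18. Of 21 markers of other cells listed in the deposited file, 14 were tested, and LUM and INS had no count in any of the 4 libraries. The 14 had a median log2 fold change of 0.42, against -0.02 for all genes tested, and none passed. With only the 24 h libraries 3 passed as higher, in DESeq2 or under total-count scaling 2, and under RLE or upper-quartile scaling or without wild-type replicate 1 there was 1. Their summed level was 110 and 97.1 CPM in wild type and 124 and 122 CPM in knockdown, mostly from COL1A1 (69.2 and 54.8 against 76.2 and 77.9 CPM). Their part in the results was not tested.

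Genes downstream of beta-catenin were called in both directions. The beta-catenin feedback gene AXIN2 rose from 14.0 and 15.8 CPM to 26.6 and 29.1 CPM (log2 fold change 0.90, SE 0.13, edgeR adjusted p = 6.0e-05) while EPHB2, another beta-catenin target, fell. Of 19 tested targets 2 rose and 3 fell, near the 5.14% and 12.4% of all genes, and 1 to 2 passed in each direction with a library left out. Of 18 keratins 8 fell and none rose, 2 under total-count scaling and 2 to 4 with each of the 4 libraries left out in turn. KRT7 went from 2.94 and 2.30 CPM to 0.208 and 0.861 CPM (-2.24, SE 0.38). Keratins made up much of 2 of the 3 lowest separate runs of 20 genes. These ran from NR4A1 to SOAT2 on chromosome 12 (median -0.49, 10 lower) and from KRTAP4-4 to FKBP10 on chromosome 17 (median -0.44, 6 lower and 1 higher). The lowest run, from LINC00240 to ZNF165 on chromosome 6, included many histone genes (median -0.68, 1 lower). Of 17 tight junction genes 4 rose and none fell, among them the claudin genes CLDN3 (0.50) and CLDN15 (0.49), and 2 passed with knockdown replicate 1 left out and 1 with wild-type replicate 2 left out. ELF3, an epithelial transcription factor gene, fell from 274 and 216 CPM to 171 and 122 CPM (-0.74), a call that ended when the fit held the 24 h libraries alone (edgeR adjusted p = 0.24). In the epithelial-mesenchymal list 3 of 27 rose and 1 fell, and 1 to 2 passed as higher with a library left out.

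Genes of proteins known as partners of NORAD were read as separate lists, against 5.14% of all genes higher and 12.4% lower. The zinc finger, chromatin modifier and lysosome and autophagy lists given after them are not lists of NORAD partners. These shares cover all levels, and of the 3967 most abundant genes 1324 were lower. The lists were not matched for level. Of 20 tested genes of Pumilio and deadenylation 3 fell, all subunits of the CCR4-NOT deadenylase, 2 and 1 without wild-type replicates 1 and 2 and none without knockdown replicate 2. Of 17 genes of the topoisomerase, RBMX and PRP19 complex named in the title of the series 8 fell, 4 under total-count scaling and 5 without wild-type replicate 2 or knockdown replicate 2. TOP1, which relaxes supercoiled DNA, fell from 344 and 346 CPM to 248 and 232 CPM (log2 fold change -0.52, SE 0.08), ISY1 by 0.57 and PRPF19, the ubiquitin ligase of the complex, by 0.50. RBMX was at -0.33, a call that ended with each of the 4 libraries left out and under total-count, upper-quartile or abundance-dependent scaling. Of 225 tested zinc finger genes of chromosome 19, many of which carry KRAB domains, 1 rose and 7 fell (median 0.01), with 1 to 2 lower when a library was left out. Of 38 long chromatin modifier genes 1 fell. Of 27 lysosome and autophagy genes 8 rose and 3 fell, with 2, 2 and 1 higher without wild-type replicate 1, wild-type replicate 2 and knockdown replicate 1. The autophagy receptor gene SQSTM1 fell from 161 and 138 CPM to 91.8 and 93.5 CPM (-0.69, SE 0.10).

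Transcript usage, the share of a gene's counts held by each of its transcripts, differed in fewer genes. Of 12822 genes with at least 2 transcripts tested, 197 (1.54%) passed in edgeR's diffSpliceDGE, and 66 of them also passed as whole genes. In 17 of those with a mean of at least 5 CPM, a transcript's share differed by at least 20 percentage points with groups apart. Of the 7 genes named here, C5orf22 passed with each library left out (adjusted p up to 0.0329), and each of the others lost its call without at least 1 library.

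In SRGAP3, a GTPase-activating protein gene on chromosome 3, the shares of 2 coding transcripts differed most. SRGAP3-201 held 64.4% and 48.0% in wild type and 0.485% and 0% in knockdown, and SRGAP3-202 held 0% and 0% in wild type and 72.8% and 73.1% in knockdown (edgeR adjusted p = 3.6e-04). The call ended without wild-type replicate 1 (edgeR adjusted p = 0.0559) and when only transcripts with at least 50 counts were tested (0.126). Besides the length of their first and last exons, they differ in exon 12, at chr3:9028100-9028130 in the former and chr3:9032650-9032752 in the latter. The gene as a whole did not pass (0.40, edgeR adjusted p = 0.12). AK4, a mitochondrial adenylate kinase gene, gained AK4-207, which starts upstream of AK4-201, from 0.403% and 0% to 18.8% and 16.7%, a call that ended without wild-type replicate 2 (edgeR adjusted p = 0.0713). ZFX, an X-linked transcription factor gene, gained ZFX-204 from 0% and 2.21% to 36.4% and 19.2%, a call that ended without wild-type replicate 1 (edgeR adjusted p = 0.138) or with the 24 h libraries alone (0.0733). C5orf22 lost C5orf22-201 from 30.8% and 46.7% to 0% and 0%. The others of the 7 named genes were ARHGAP42, HIVEP3 and LRRC37A3. LRRC37A3 belongs to a family of near-identical genes and its shares are uncertain, and its call ended without wild-type replicate 1 (edgeR adjusted p = 0.0604) or 2 (0.055). The ARHGAP42 call ended without knockdown replicate 1 (edgeR adjusted p = 0.101) or 2 (0.118). In HIVEP3 the lost transcript HIVEP3-202 was present in only 1 wild-type library (30.0% and 0%), and the call ended without that library (edgeR adjusted p = 1), without either knockdown library (0.100 and 0.102) and with the 24 h libraries alone (1). Of 15683 retained-intron transcripts tested, 14 passed with a higher share and 13 with a lower share, against 92 and 84 of 39846 coding transcripts. The whole test rested on estimated counts that a model divides between overlapping transcripts.

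**Figure D4:**
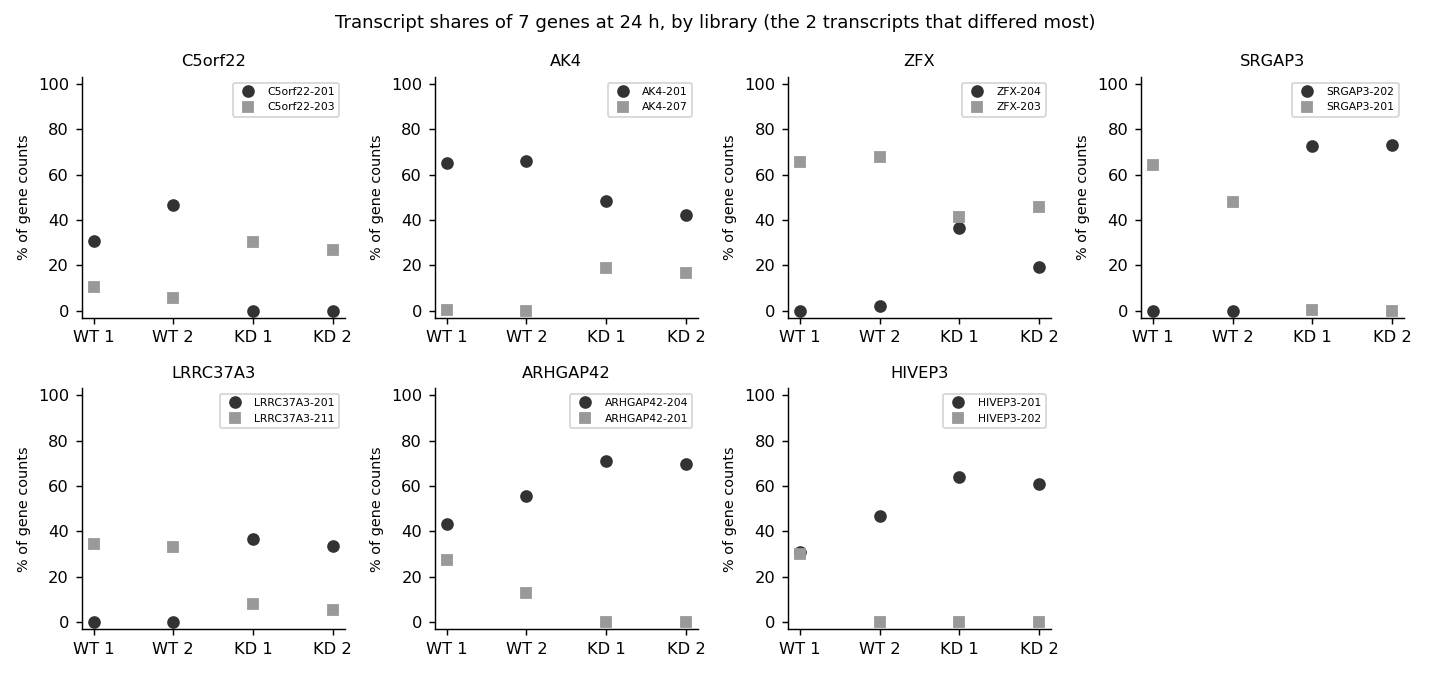
Share of the gene's estimated counts (percent) held by the 2 transcripts that differed most, in each of the 4 libraries of 24 h, for the 7 named genes; WT is wild type and KD knockdown. In SRGAP3 the 2 transcripts change places, at 0% and above 72% for SRGAP3-202, while in HIVEP3 the 2 wild-type libraries differ from each other.

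How much of the 24 h difference was still there once NORAD was lower was read from the later libraries, which share no control with those of 24 h. The wild-type libraries themselves differed between times. In wild type, IL32 was at 750 and 267 CPM at 24 h and at a mean of 0.311 CPM at 48 h. LINC00678 was at 22.1 and 22.3 CPM, then 0.815 CPM. Mitochondrially encoded genes held 4.89% and 5.05% of wild-type counts at 24 h, 10.43% to 11.15% at 48 h and 15.48% to 16.64% at 96 h. A change of an effect with time therefore cannot be told apart from other differences between these sets of libraries. Of 277 genes that passed at 24 h with at least a 2-fold difference, 168 passed in the same direction at 48 h and 88 at 96 h, and 2 and 1 passed in the other direction. The shares of all genes that passed at 48 h and 96 h are not set beside these counts, so the counts alone do not measure persistence. The difference between the 24 h effect and the mean of the later effects was tested for every gene, and 161 genes (0.812%) passed. Among the genes called at 24 h it was 128 (3.67%). These genes, like the 277 above, were picked at 24 h, which by itself favours a larger effect there. The interferon effectors held 20 of the 161. The 44 effectors that rose at 24 h had a median log2 fold change of 1.04 at 24 h, 0.20 at 48 h and 0.30 at 96 h; they were picked at 24 h, which by itself favours a higher value there. For all 59 tested effectors the medians were 0.81, 0.27 and 0.25.

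Of the effectors past this test, OAS1 had the largest difference, from 2.65 at 24 h to -0.61 at 48 h and 0.57 at 96 h (24 h minus later 2.67, SE 0.24, edgeR adjusted p = 1.19e-06). IFI6, at 2.60, was at 1.24 and 0.85 later (1.56, SE 0.14, edgeR adjusted p = 9.56e-07). Its mean level in the wild-type libraries was 14.1 ± 0.388 CPM (SD, n = 3) at 48 h and 19.8 ± 0.971 CPM (SD, n = 3) at 96 h, below the 49.5 and 42.2 CPM of 24 h, and in knockdown it was 33.3 ± 5.37 and 35.6 ± 1.69 CPM (n = 3 each). The large falls were smaller later too: KCNK1 from -3.90 to -2.15 and -0.65, EPHB2 from -3.83 to -1.78 and -0.92, FKBP10 from -2.89 to -1.85 and -0.29, and CEP83 from -4.30 to -2.10 and -1.64, each past the threshold of this test. They were picked for their size at 24 h, which by itself favours a smaller value later. The sterol list had medians of -0.59, -0.15 and -0.13 at the 3 times, with 6 members past the test. Ribosome biogenesis had -0.62, -0.69 and -0.21, with 2 members past it, FBL and EBNA1BP2. Mitosis genes ran otherwise, at -0.45, -0.18 and -0.79, and DNA replication genes at -0.45, -0.34 and -0.51. None of either list was past the test, which sets 24 h against the mean of the later effects. Opposite shifts at 48 h and 96 h can cancel in that mean, so this does not show that these lists were unchanged with time.

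**Figure D5:**
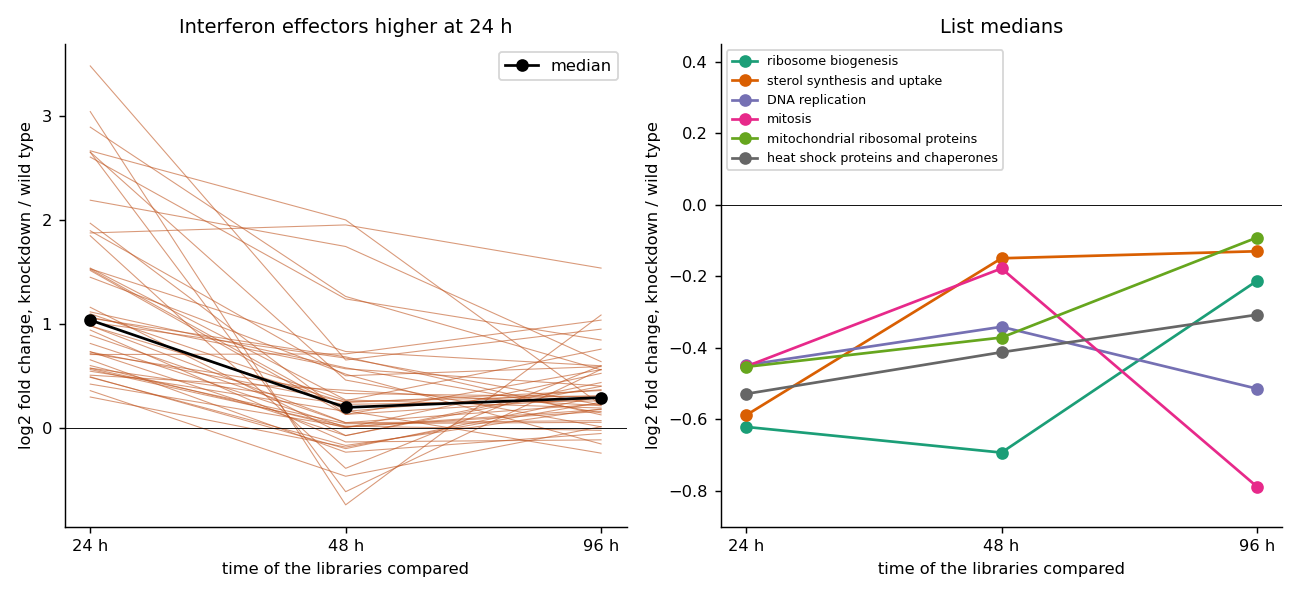
Left, log2 fold change (knockdown over wild type) at 24 h, 48 h and 96 h of the 44 interferon effectors that passed as higher at 24 h (lines) with their median (black; 1.04, 0.20 and 0.30). Right, medians of 6 lists at the same times, with each time compared with its own wild-type libraries.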

How the data were processed

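Estimated counts per transcript, 1 column for each of the 16 libraries, were deposited by the authors, who named kallisto, DESeq2 and hg19, per the submitters' processing notes. No version, index or transcript annotation is given in the sources used here. Of 166096 transcripts, 156584 matched GENCODE release 29 (GRCh38) and were summed to 31496 genes and rounded. The 9512 others, 3.17% to 3.40% of the counts at 24 h, were left out. Coordinates are those of GENCODE 29, not of hg19. The 18 largest values, those with at least 7 digits, have 0 as their last digit and may be rounded.

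Genes were tested with edgeR 4.0.16 (R 4.3.3, limma 3.58.1): quasi-likelihood F test, TMM scaling, a filter on low counts, all 16 libraries in 6 groups and so 10 residual degrees of freedom, with Benjamini-Hochberg adjustment over all genes and a threshold of 0.05. Levels are CPM on TMM library sizes. For transcript usage, diffSpliceDGE of edgeR gave Simes p-values per gene. The code was tested on simulated data. Counts of the 2 replicates of a group were compared by chi-square (12.6 per degree of freedom for wild type, 11.2 for knockdown), above sampling noise, so each library was counted. The genes named for size are the 20 largest rises and falls among called genes with a mean of at least 5 CPM and groups apart. In lists, named genes come from the 8 members with the lowest p, or all members in lists of up to 12. Members outside these were picked after their values were seen. The members and the 42 lists were chosen with earlier results of these data known. Alternatives were other scalings, DESeq2 1.42.0, no filter, a test against a 1.2-fold change, only the 24 h libraries, a replicate block and leaving out each library. Promoters come from RefSeq (GRCh38.p14), which had 1 for 13581 of the tested genes. Results of some genes are not reported here.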

Additional observations from a re-analysis of the deposited data

Results flagged for a closer look

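The share of counts in transcripts without a matched gene, which enter no comparison, was 3.17% and 3.21% in wild type and 3.39% and 3.40% in knockdown at 24 h, a difference of means of 0.2 percentage points.

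The effect at 24 h differed from the mean of the effects at 48 h and 96 h, in edgeR's test of that difference with Benjamini-Hochberg adjustment, for the named genes that follow. Values are the 24 h effect minus the later mean on the log2 scale, and NORAD stood at 2.24. All but NORAD were picked among genes that passed at 24 h, which by itself favours a larger effect there. The interferon and antigen presentation genes were OAS1 (2.67), IFIT1 (1.98), IFIT3 (1.76), BST2 (1.74), IFI6 (1.56), PARP10 (1.35), TLR3 (1.30), LAMP3 (1.26), IFIH1 (1.23), PARP9 (1.17), DTX3L (0.99), C19orf66 (0.93), PSMB9 (0.89), NLRC5 (0.88), SP110 (0.75), TMEM173 (0.70), PARP12 (0.68) and OASL (0.59). All of these were positive, as were the zinc finger genes ZNF608 (1.00) and ZNF827 (0.42) and the Wnt genes AXIN2 (0.76) and DKK1 (0.57).

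The others were negative, a fall at 24 h that was smaller, absent or of the other sign later. The sign turned at both later times for ACSS2 (log2 fold changes 0.43 and 0.28 at 48 h and 96 h), CHAC1 (0.32 and 0.14) and MAP1LC3B (0.225 and 0.32), among others. MXD1 was at 0.92 at 48 h and at -0.02 at 96 h. Among the genes with the largest falls these were KCNK1 (-2.49), EPHB2 (-2.48), CEP83 (-2.43), FKBP10 (-1.82), PLEKHH2 (-1.36), MYH10 (-0.99), CCDC88B (-0.97), VGF (-0.97) and NFIC (-0.81). Among stress, early response and autophagy genes they were CHAC1 (-1.24), MXD1 (-1.13), SESN2 (-0.89), ATF3 (-0.74), IER3 (-0.67), HERPUD1 (-0.67), MAP1LC3B (-0.59), PLK3 (-0.55), SQSTM1 (-0.55), IER2 (-0.49) and ASNS (-0.48). Lipid genes were ACSS2 (-1.23), MVD (-0.64), MSMO1 (-0.62), ACAT2 (-0.58), IDI1 (-0.53) and FDPS (-0.40). The rest were FBL (-0.50), RPL11 (-0.49), EBNA1BP2 (-0.44), TOP1 (-0.44), YARS (-0.42) and NDUFA10 (-0.37).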

How the results depend on the processing

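The count of called genes, 3484, was 1018 against a 1.2-fold change and 1500 to 2085 with 1 library left out. Genes called higher, 1019, were 2477 when scaled by total counts, 1730 by upper quartile, 2069 with only the 24 h libraries, 356 against a 1.2-fold change and 450 to 582 with 1 library left out. Genes called lower, 2465, were 810 when scaled by total counts, 1489 by upper quartile, 1387 by abundance, 1601 with no filter, 662 against a 1.2-fold change and 924 to 1535 with 1 library left out. Usage calls, 197, were 122 to 151 with 1 library left out. Named genes with a 24 h effect unlike the later ones, 56, were 25 to 43 with 1 library left out. The sign turned for KRT8 (0.148) and KRT18 (0.084) under abundance-dependent scaling and for NORAD without knockdown replicate 1 (-0.017 to 0.322 with 1 library left out). The causes were not tested. DESeq2 called 3645 genes. Over genes as a whole, same-numbered libraries did not deviate together (correlation -0.03). That does not show that they share nothing, as single genes such as IL32 and TMC5 were higher in replicate 1 of both groups. With a replicate block 2587 genes, 716 higher and 1871 lower, and 50 usage genes passed. Of 275 named genes 100 calls were lost against a 1.2-fold change, 58 under total-count scaling and 50 to 73 with 1 library left out. Depth limits low genes most: of the 3968 least abundant genes tested, 22 passed as higher and 7 as lower, and a difference that missed the threshold there is not shown to be absent.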

Other observations

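TLX3, a homeobox gene of neurons, was at 8.13 and 8.63 CPM in wild type and at 0.979 and 1.2 CPM in knockdown at 24 h (log2 fold change -2.93, SE 0.20, edgeR adjusted p = 5.47e-09). Its effect was -1.74 at 48 h and -0.53 at 96 h. DUOX2, a hydrogen peroxide-producing oxidase gene of mucosal epithelia, went from 2.18 and 1.86 CPM to 6.02 and 6.43 CPM (1.62, SE 0.22, edgeR adjusted p = 5.47e-05), with 1.74 at 48 h and 0.58 at 96 h. Both genes were picked out after their values were seen.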
